A study of Mus musculus with 2 samples.

Results

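Ribosomal protein genes are the 100 genes of the RNA matrix, of 20794 in all, whose symbol starts with Rpl or Rps followed by a digit, starts with Rplp, or is Rpsa. The 184 symbols that end in -ps, the mark of a pseudogene, were left out. By lists of cytosolic ribosomal proteins, 46 of the 100 encode proteins of the large (60S) subunit and 31 encode proteins of the small (40S) subunit. A further 13 are paralogs or near copies, such as Rpl22l1 and Rps27rt. The symbol rule also takes in 10 genes that encode no ribosomal protein: Rps19bp1, which encodes a protein that binds Rps19, and 9 genes with symbols of the S6 kinase family. Rps6ka1 and Rps6kb1 are the most abundant of the 9, and kinases of this family phosphorylate Rps6. These 10 were kept in the set and are given apart wherever they matter.

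The ribosome reads messenger RNA and builds protein, the small subunit decoding the message and the large subunit joining amino acids. Each subunit holds ribosomal RNA and a single copy of most of its proteins, and the protein genes are usually transcribed and translated together. Many of their messenger RNAs start with a run of pyrimidines, the terminal oligopyrimidine tract, through which the kinase mTOR controls their translation. T cells raise ribosome production when they leave rest and divide.

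The data came from GD2TIF cells, mouse CD8 T cells at 2 months after transfer. Cas9 transgenic T cells had been activated and then infected with a retrovirus that targets Bcor and Zc3h12a and delivers 14g2a, a chimeric antigen receptor against the ganglioside GD2. Immunocompetent C57BL/6 mice received 1000000 cells each, and CD8+Thy1.1+ cells were later sorted from the spleen. All cells carry this whole combination, and no untreated or unedited cells are among the samples used here. There is 1 single-cell RNA library, made on Singleron microwell chips, and 1 T cell receptor (TCR) library from the same sort. The labels do not state how many mice gave cells.

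With 1 library there is no replicate, and no test of a condition is possible. All intervals below are exact 95% intervals that cover counting error only. UMIs (unique molecular identifiers) count captured molecules, so levels are given as UMIs per 1000000 UMIs (CPM) with no division by gene length. Of 10387 barcodes, 10338 passed the filters on genes and mitochondrial share, with 22280465 UMIs in all; the median cell had 1922 UMIs from 977 genes. The 10 T cell markers were all detected, at 163 to 3577 CPM, and Cd4 had 0.628 CPM. The 8 B cell markers summed to 779 CPM, 561 of them from Ighm, which had a UMI in 48.3% of cells, while Cd79a was at 4.04 CPM. The 6 NK cell markers summed to 5.34 CPM and the 4 monocyte and macrophage markers that are in the matrix to 13.2 CPM. Cells with exactly 1 productive TCR beta chain (TRB) numbered 3879.

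Ribosomal protein genes took 4131785 UMIs, or 18.5% of all UMIs (18.53% to 18.56%). Genes of the large subunit took 9.89% and those of the small subunit 8.36%, a ratio of 1.18 (1.182 to 1.186). Paralogs and copies added 0.268%, and the 10 genes that encode no ribosomal protein 0.0267%. For scale, 17 translation factor genes took 1.09%, 25 ribosome biogenesis genes 0.264%, and 81 genes of mitochondrial ribosomal proteins 0.462%. Gm42418, a gene model that overlaps ribosomal RNA, took 3.25% on its own. The cytosolic set was thus far above each of these groups.

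A single gene stood above all others. Rps27 (ENSMUSG00000090733), a zinc-binding protein of the small subunit, had 11954 CPM (11909 to 12000) and took 6.45% of all UMIs of the set. It had a UMI in 99.7% of cells. Rps29, another small zinc-binding protein of the small subunit, followed with 5949 CPM. Rpl13, of the large subunit, had 4960 CPM. Rplp1, a protein of the stalk that recruits elongation factors, had 4859 CPM, and Rpl5, which binds 5S ribosomal RNA, had 4375 CPM. Rpl41 with 4259 CPM, Rps24 with 4151 CPM, Rpl32 with 4112 CPM and Rpl37a with 3894 CPM were also among the 10 highest. The 10 highest genes held 28.9% of the UMIs of the set, and among them only the intervals of Rps24 and Rpl32 overlapped. Rps28, next in order with 3869 CPM, overlapped with Rpl37a.

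**Figure D1:**
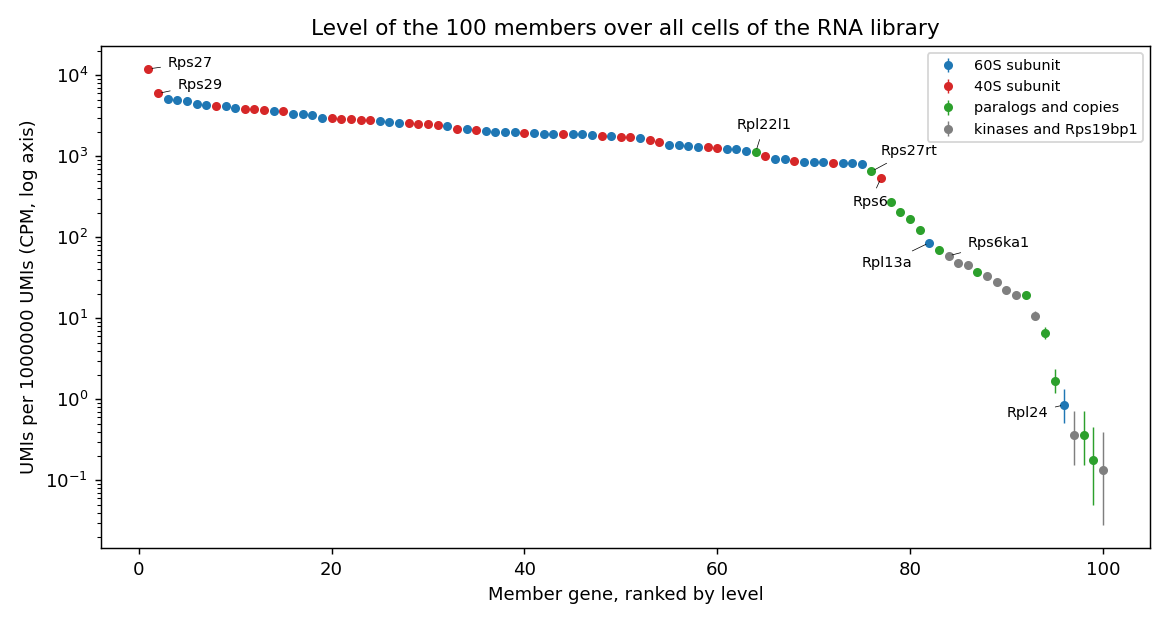
Level of each of the 100 genes (UMIs per 1000000 UMIs, log axis) over the 10338 cells, ranked from highest to lowest; bars are exact 95% intervals for counting error and colours are roles. Most 60S and 40S genes sit on one slope between about 1000 CPM and 5949 CPM, with Rps27 above it at 11954 CPM and Rps6, Rpl13a and Rpl24 below it at 541, 85.5 and 0.853 CPM.

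Most genes of both subunits lay close together below these. The median over the 77 subunit genes was 1962 CPM, 1880 CPM for the large and 2454 CPM for the small subunit, and 63 of the 77 reached 1000 CPM. In the small subunit the level ran down to 541 CPM for Rps6, the substrate of the S6 kinases, with no other small subunit gene under 800 CPM. In the large subunit 2 genes fell far below the rest. Rpl13a (ENSMUSG00000074129), known in human myeloid cells also as part of a complex that silences inflammatory messages, had 85.5 CPM and a UMI in 13.8% of cells. Rpl24 (ENSMUSG00000098274) had 0.853 CPM, or 19 UMIs in all 10338 cells.

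The annotation at the low genes was looked up. In RefSeq annotation of GRCm38.p6, Rpl24 lies at chr16:55966275-55971437 and overlaps 1 other gene, Zbtb11. Rpl13a lies at chr7:45125563-45128745 and overlaps 5 genes of small RNAs, Snord32a among them. Rps6 overlaps no annotated gene, and its 3 symbols ending in -ps summed to 99.1 CPM. Of the 100 genes 50 overlap another annotated gene, and overlap is common in the set. Whether the counting of reads at overlapping genes or near copies lowered these values was not tested.

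Among the paralogs, Rpl22l1 had 1126 CPM against 821 CPM for Rpl22. Rpl22 is needed for the development of alpha-beta T cells in mice, and Rpl22l1 is its closest paralog. Rps27l had 204 CPM and Rpl36al 169 CPM, far below Rps27 and Rpl36a at 11954 and 1210 CPM. Rpl7l1, a factor of large subunit assembly, had 69.4 CPM. Rps27rt, a near copy of Rps27, had 648 CPM, Rpl37rt 274 CPM, Rps3a2 122 CPM, Rpl6l 36.9 CPM, Rpl32l 19.4 CPM and Rps3a3 6.55 CPM. Values of copies are uncertain, since reads of the parent gene may be counted in them. Rpl39l had 38 UMIs, Rps12l1 8 and Rps4l 4.

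The 10 genes that encode no ribosomal protein were all low. Rps6ka1 had 58.9 CPM, Rps6kb1, whose protein is the S6 kinase downstream of mTOR, 48.0 CPM, and Rps19bp1 45.4 CPM. Rps6ka3 had 33.4, Rps6ka5 28.0, Rps6ka4 22.0, Rps6kb2 19.5 and Rps6kc1 10.8 CPM. Rps6kl1 had 8 UMIs. Rps6ka2 had 3 UMIs, or 0.135 CPM, which is at the floor of 3 counts used here. Of ribosomal proteins whose symbols fall outside the rule, Fau, a ubiquitin-like protein fused to a small subunit protein, had 4340 CPM and Rack1 756 CPM. Within the set, Rps27a, a small subunit protein made as a fusion with ubiquitin, had 2476 CPM. The highest symbol ending in -ps was Rps16-ps2 with 496 CPM, followed by Rps18-ps3 with 241 CPM. All 184 together took 0.488% of UMIs, and 54 of the 77 subunit genes have at least 1 such symbol in the matrix.

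The first bases of several of these messages show the tract named above. RefSeq promoter sequences of GRCm38.p6 were found by symbol for 57 of the 77 subunit genes. A tract was called where a C followed by at least 5 C or T began within 10 bases of an annotated start, on the strand of the gene. It was found in 31 of the 57 genes (54.4%), in 4 of 11 translation factor genes and 2 of 23 ribosome biogenesis genes. The share over all 27025 genes of the table was 21.9%, and over the 6401 genes with at least 200 UMIs it was 23.5%. Annotated starts can be off by some bases, so a missing match says only that the letters are not in this window. The 30 bases shown start 10 bases before the annotated start, and capitals mark the tract. They are shown for the highest gene, for the low genes Rps6, Rpl13a and Rpl24, and for genes that deviate between cell families below. The windows lie at chr3:90213629-90213658 (minus strand) for Rps27, chr4:86857348-86857377 (minus) for Rps6, chr7:45128726-45128755 (minus) for Rpl13a, chr16:55966265-55966294 (plus) for Rpl24, chr10:23787190-23787219 (minus) for Rps12, chr17:33824543-33824572 (minus) for Rps28 and chrX:74270806-74270835 (plus) for Rpl10.
Rps27: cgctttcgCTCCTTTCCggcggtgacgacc
Rps6: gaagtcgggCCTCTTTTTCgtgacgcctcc
Rpl13a: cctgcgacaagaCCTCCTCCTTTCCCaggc
Rpl24: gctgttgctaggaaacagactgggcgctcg
Rps12: tcatgcggccaccgccggCCTTTTCCCCTg
Rps28: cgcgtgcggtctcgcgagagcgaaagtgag
Rpl10: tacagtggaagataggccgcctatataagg
The highest gene, Rps27, holds a tract in this window, as do Rps12 and 2 of the 3 low genes, Rps6 and Rpl13a. Rpl24, the lowest, holds none, nor do Rps28 and Rpl10.

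The share of UMIs varied from cell to cell. The median cell gave 17.7% of its UMIs to the 100 genes, the 5th and 95th percentiles were 9.69% and 25.8%, and the extremes were 1.02% and 43.5%. No cell lacked a UMI of these genes, and 559 cells (5.41%) gave under 10%. After each of 9456 cells was thinned to 1000 UMIs, with 882 shallower cells left out, the mean was 18.1% with a standard deviation of 4.50 percentage points. Counting alone would give 1.22 points.

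The share was higher in deeper cells and lower in cells rich in mitochondrial UMIs. In the 882 cells under 1000 UMIs it was 14.4%, in 4655 cells of 1000 to 2000 UMIs 17.1%, in 4170 cells of 2000 to 4000 UMIs 18.9%, and in 631 cells of 4000 UMIs or more 21.3%. Translation factors followed the same order, with 0.865%, 0.999%, 1.10% and 1.27%. In the 438 cells with 8% to 20% mitochondrial UMIs the share was 8.69%, against 17.9% at 4% to 8%, 19.1% at 2% to 4% and 18.5% under 2%. Those 438 cells had a median of 843.5 UMIs and gave 3.88% of their UMIs to the nuclear RNA Malat1, against 1.15% at 2% to 4%. The ratio of large to small subunit UMIs was 1.19 in them, against 1.18 at 2% to 4%. Over depth the ratio was 1.159 under 1000 UMIs, 1.169 at 1000 to 2000, 1.181 at 2000 to 4000 and 1.223 at 4000 or more, and it was 1.22 in cells under 2% mitochondrial UMIs. The part of cell quality in the share was not tested.

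**Figure D2:**
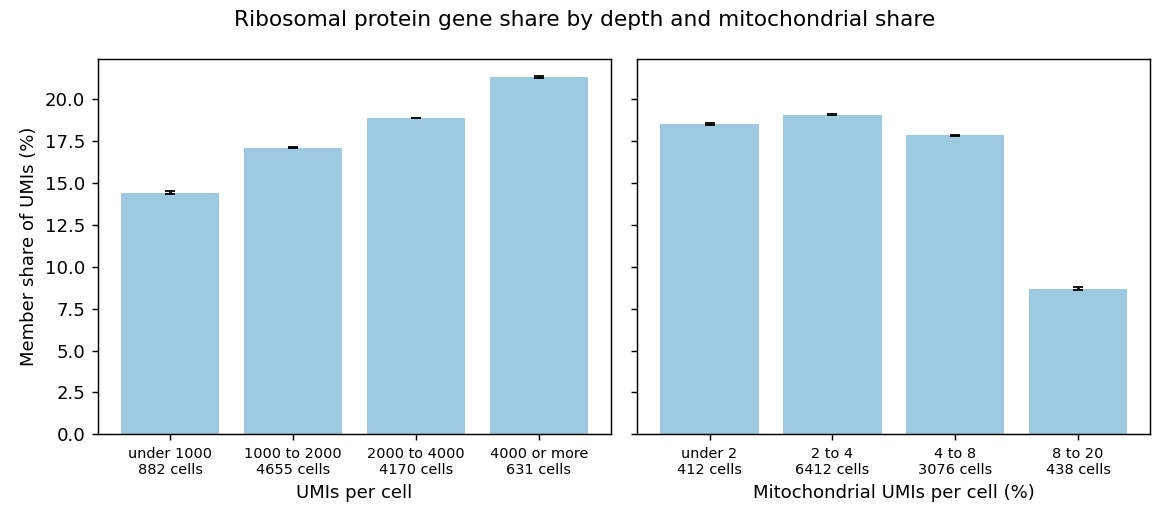
Share of UMIs of the 100 genes (percent, bars from 0) by UMIs per cell (left) and by mitochondrial share per cell (right); error bars are exact 95% intervals for counting error. The share climbs with depth to 21.3% in cells of 4000 UMIs or more, and is 8.69% in the 438 cells with 8% to 20% mitochondrial UMIs.

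Single genes were also unevenly spread over cells. In cells thinned to 1000 UMIs, the variance of the count divided by its mean, which is 1 for counting alone, was highest for Rps27, at 2.17. Rpl39l followed with 1.95, from 38 UMIs in 0.203% of cells. Rps2 had 1.72 and Rps19, whose human gene is mutated in Diamond-Blackfan anaemia, 1.68, both among the 5 highest. The median over the subunit genes was 1.32, and for a given relative spread between cells the measure is larger in genes of higher level.

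Cells that share 1 TRB sequence usually descend from a common ancestor, and are called families here. Grouping the 3879 cells with exactly 1 productive TRB by the nucleotide sequence of its most variable loop (CDR3) gave 430 sequences. Of these, 12 reached 50 cells and held 2614 cells, from 882 down to 50, and the next sequence had 40 cells. Families are named by their V and J segments, and TRBV12-2+TRBV13-2 is a V call that names both. The CDR3 of the families that the results turn on follow, with the first and last codon in capitals. The TRB locus lies on mouse chromosome 6.
TRBV12-2 TRBJ1-1: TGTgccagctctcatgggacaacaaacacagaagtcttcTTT
TRBV14 TRBJ1-4: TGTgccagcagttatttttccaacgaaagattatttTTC
TRBV12-2+TRBV13-2 TRBJ2-3: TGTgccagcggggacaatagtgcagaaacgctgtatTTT
TRBV13-3 TRBJ2-1: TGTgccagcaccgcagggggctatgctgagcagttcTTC
TRBV15 TRBJ1-1: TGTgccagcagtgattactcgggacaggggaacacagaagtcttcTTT
These 5 sequences differ in the bases between the conserved ends, which is what sets the families apart. Since the number of mice is not given, differences between families cannot be told apart from differences between mice.

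Families differed in how many of their UMIs came from ribosomal protein genes. The share was 21.9% (21.7% to 22.1%) in the 59 cells of TRBV12-2 TRBJ1-1, 21.8% in the 93 cells of TRBV14 TRBJ1-4, 21.2% in the 77 cells of TRBV12-1 TRBJ2-4 and 21.1% in the 151 cells of TRBV15 TRBJ2-5. It was 19.7% in TRBV17 TRBJ1-1, 19.1% in TRBV12-2+TRBV13-2 TRBJ2-3, 18.4% in TRBV13-3 TRBJ2-7 and 17.6% in TRBV12-2+TRBV13-2 TRBJ2-5. The lowest were TRBV29 TRBJ1-1 with 17.2%, TRBV13-3 TRBJ2-1 with 16.9%, TRBV17 TRBJ2-7 with 16.7% and TRBV15 TRBJ1-1, the largest family with 882 cells, with 16.3% (16.29% to 16.40%). All other cells with exactly 1 TRB gave 18.3% beside TRBV12-2 TRBJ1-1 and 18.9% beside TRBV15 TRBJ1-1. Cells with no TRB, 6212 in number, gave 18.7% at a median of 1814.5 UMIs, and the 1265 cells with 1 TRB outside the 12 families gave 18.6%. The highest and lowest family were 5.57 percentage points apart. The first 2 families do not differ beyond their counting error, nor do TRBV12-1 TRBJ2-4 and TRBV15 TRBJ2-5, or TRBV13-3 TRBJ2-1 and TRBV17 TRBJ2-7. The intervals leave out the spread between cells, so a gap between other pairs that is beyond counting error may still lie within that spread.

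**Figure D3:**
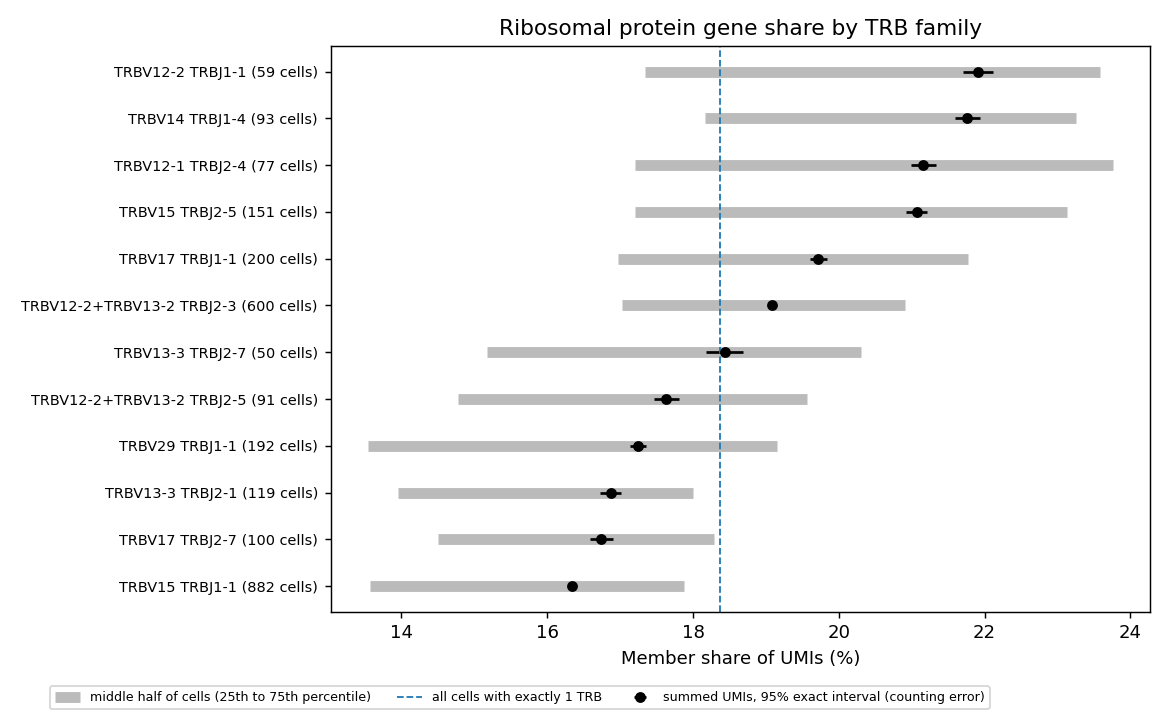
Share of UMIs of the 100 genes (percent) in 12 TRB families, highest at the top; points are summed UMIs with exact 95% intervals for counting error, grey bars span the 25th to 75th percentile of single cells, and the dashed line is the share over all cells with exactly 1 TRB, 18.4%. Family values run between 21.9% and 16.3%, and the grey bars of single cells overlap for most pairs of families, but that of TRBV14 TRBJ1-4 lies wholly above those of TRBV15 TRBJ1-1 and TRBV13-3 TRBJ2-1.

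Single cells varied widely within each family. The middle of the cells, between the 25th and 75th percentile, ran between 17.3% and 23.6% in TRBV12-2 TRBJ1-1 and between 13.6% and 17.9% in TRBV15 TRBJ1-1. Depth differed between families as well: median UMIs per cell were 2251 in TRBV12-2 TRBJ1-1, 2164 in TRBV14 TRBJ1-4 and 2060 in TRBV15 TRBJ1-1, within a range of 1732.5 to 2622 over the families. Among cells of 1000 to 2000 UMIs, TRBV14 TRBJ1-4 was highest with 19.7% and TRBV15 TRBJ1-1 lowest with 15.3%, 4.34 points apart. Among cells of 2000 to 4000 UMIs the same families were at 22.1% and 16.5%, 5.58 points apart. TRBV12-2 TRBJ1-1 had 17.6% from its 19 cells of 1000 to 2000 UMIs and 21.5% from its 30 cells of 2000 to 4000 UMIs, so it was near the top in the deeper of these bins only. Median mitochondrial shares lay between 2.98% and 3.99% in all families, and the summed B cell markers between 117 and 691 CPM. Their part in the shares was not tested.

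Both subunits moved together. In TRBV12-2 TRBJ1-1 the large subunit took 11.7% and the small 9.89% of UMIs, and in TRBV15 TRBJ1-1 they took 8.76% and 7.30%. The ratio of large to small lay between 1.16 and 1.21 in 11 of the families. The exception was TRBV13-3 TRBJ2-1 with 1.12 (1.10 to 1.15), where the small subunit was relatively high. Over the 12 families, which all come from 1 library, the share of translation factors followed that of the 100 genes with a Pearson r of 0.949. The share of symbols ending in -ps followed it with 0.966 and that of ribosome biogenesis genes with 0.732, while mitochondrial ribosomal protein genes gave 0.173 and median UMIs 0.426. These are descriptions without a test, and reads that fit both a gene and its -ps copy may tie those shares to each other.

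Gene by gene, each family was set against all other cells with exactly 1 TRB. A gene was called past the fold when its CPM was at least 25% above or 20% below that of the other cells, the interval of the ratio left out 1, and both sides together held at least 200 UMIs. Of the 100 genes 89 reached that minimum, 76 of them subunit genes. In at least 1 family 58 of the 89 (65.2%) were past the fold, against 72% of the 5812 genes that reached the minimum. These shares are near each other, so the count of 58 is no mark of the set. Each gene could pass in any of 12 families, and the intervals were not corrected for that number. Intervals are narrower for genes with more UMIs, so a gene of high level can pass at a smaller ratio than a gene of low count. Most subunit genes are of high level. The shares over all genes, here and below, are therefore not a background of like counts. Rpl3, Rps12 and Rpl12 were past the fold in 4 families each. In many families most of the subunit genes lay on the same side of 1. The number with a ratio above 1 ran between 75 of 76 in TRBV15 TRBJ2-5 and 3 of 76 in TRBV15 TRBJ1-1. Other families were more mixed, with 52 of 76 in TRBV12-2+TRBV13-2 TRBJ2-3, 41 in TRBV13-3 TRBJ2-7 and 23 in TRBV12-2+TRBV13-2 TRBJ2-5.

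**Figure D4:**
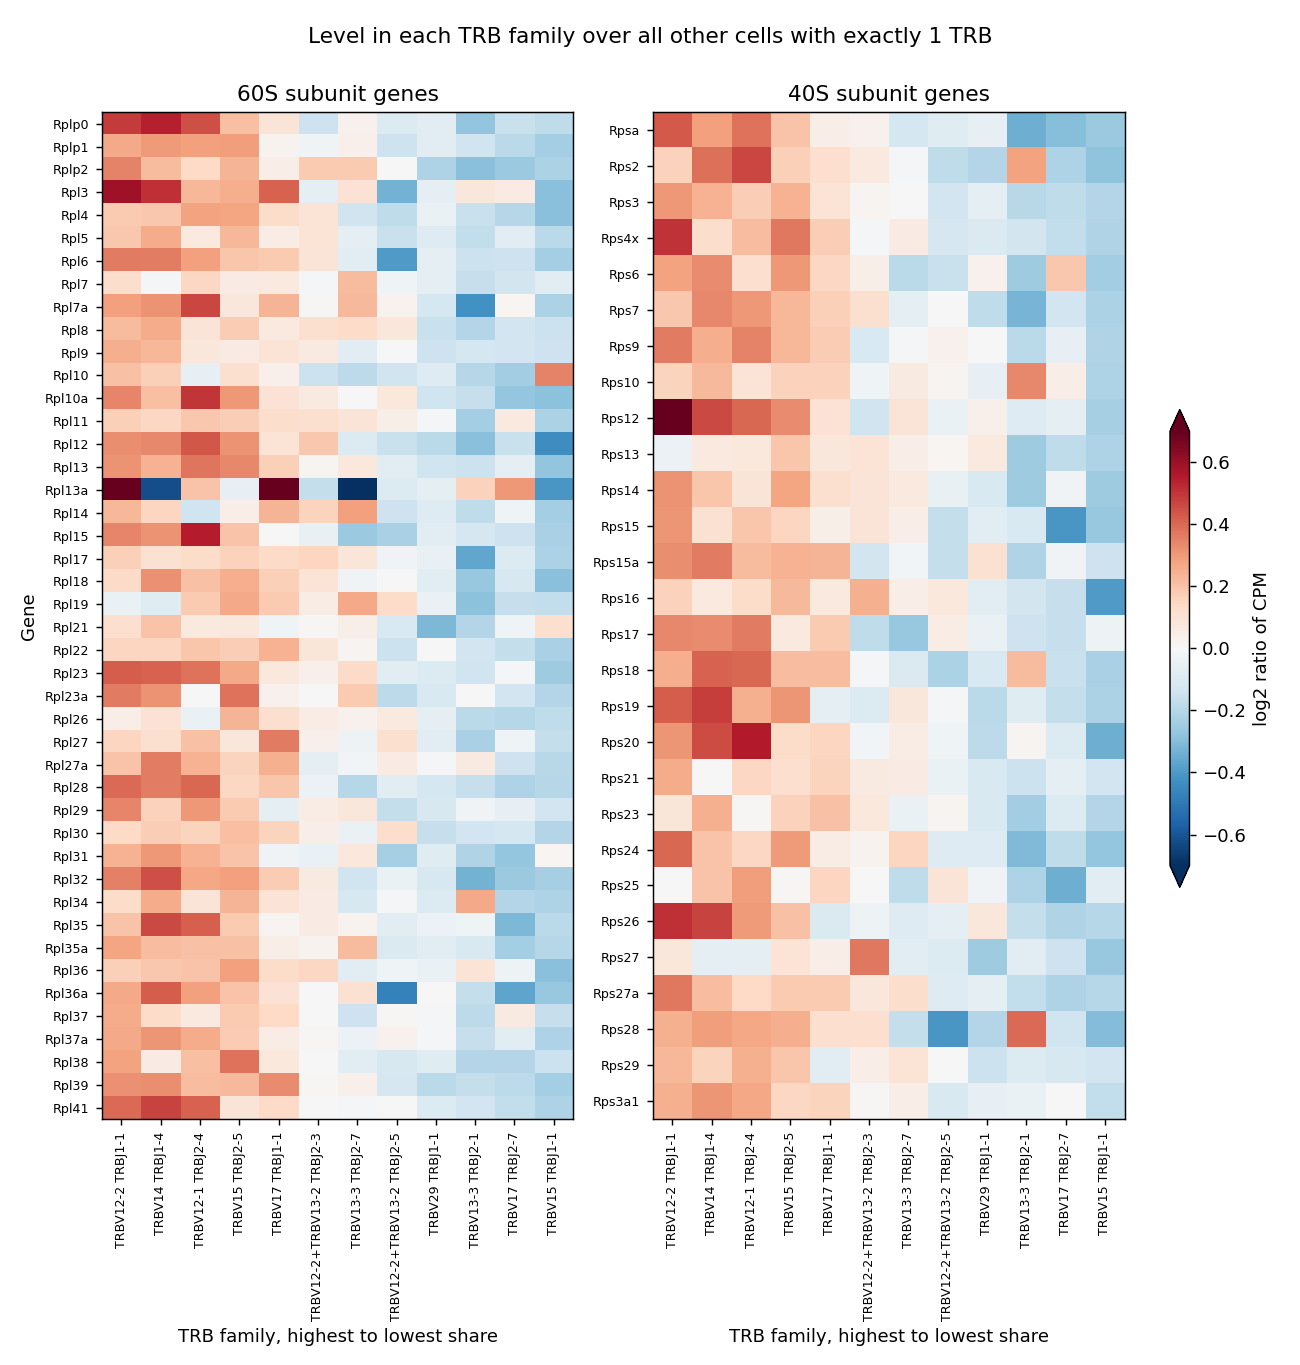
Log2 ratio of CPM for 60S genes (left) and 40S genes (right) that reached 200 UMIs, in each of 12 TRB families over all other cells with exactly 1 TRB, with families ordered from the highest to the lowest share of the set; colours are capped at 0.7 on the log2 scale. Columns are mostly of 1 colour, with Rpl10 in TRBV15 TRBJ1-1, Rps28 and Rps10 in TRBV13-3 TRBJ2-1 and Rps27 in TRBV12-2+TRBV13-2 TRBJ2-3 standing out.

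In TRBV12-2 TRBJ1-1, 27 of the 89 genes were higher (30.3%, against 4.44% of all genes tested) and 0 lower (against 5.76%). The 27 comprised 14 genes of the large subunit, 12 of the small and Rps19bp1. Of the 76 subunit genes 74 had a ratio above 1, and the median ratio over the set was 1.20, against 0.947 over all genes. Rps12, a small subunit protein, had 1611 CPM in it and 983 CPM in the other cells, a ratio of 1.64 (1.44 to 1.86). Rpl3, a core protein of the large subunit near its catalytic centre, had 1185 CPM in the family and 786 CPM in the others, a ratio of 1.51. Rps26 had 3461 CPM in the family and 2428 CPM in the others, a ratio of 1.43. Rplp0, the base of the stalk, had 4593 CPM in the family and 3271 CPM in the others, a ratio of 1.40. Rpl13a was past the fold too, from 21 UMIs in the family. With only 59 cells, this family rests on few cells, and genes of low count pass in it only at large ratios.

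In TRBV14 TRBJ1-4, 26 genes were higher (29.2%, against 5.47% of all genes) and 1 lower (against 7.62%). The higher genes were 12 of the large subunit, 12 of the small, Rpl22l1 and Rps6ka3. Rplp0 had 4757 CPM in the family and 3256 CPM in the other cells, a ratio of 1.46. Rpl22l1 had 1578 CPM in the family and 1113 CPM in the others, a ratio of 1.42 (1.27 to 1.58), while Rpl22 had 904 CPM in the family and a ratio of 1.11. The gene that was lower is the kinase gene Rps6ka1, with 5 UMIs in the family, a ratio of 0.358 (0.116 to 0.841). The median ratio of the set was 1.18, against 0.939 over all genes.

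In TRBV12-1 TRBJ2-4, 19 genes were higher (21.3%, against 6.9% of all genes) and 0 lower (against 7.3%), with 10 of the large subunit, 8 of the small and Rps6ka3. Rps20 led the subunit genes with 2765 CPM in the family and 1879 CPM in the other cells, a ratio of 1.47. Rpl15 had 1188 CPM in the family and 812 CPM in the others, 1.46. TRBV15 TRBJ2-5 had 5 higher (against 3.6%) and 0 lower (against 6.9%): Rpl38, which in mice promotes translation of Hox messages, with a ratio of 1.30, Rpl23a with 1.30, Rps4x with 1.29, Rpl13 with 1.26 and Rps12 with 1.26. Rplp1, Rpl5, Rpl11 and Rps29 were past the fold in none of the 12 families, although Rplp1 had ratios of 1.20 to 1.23 in these 4.

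TRBV15 TRBJ1-1, the largest family, held the lowest share. Here 8 genes were lower (8.99%, against 7.59% of all genes) and 2 higher (2.25%, against 12.1%). The median ratio of the set was 0.862, against 1.02 over all genes, and 3 of 76 subunit genes had a ratio above 1. Rpl12 had 650 CPM in the family and 878 CPM in the other cells, a ratio of 0.740, and Rps16 had 1964 CPM in the family and 2585 CPM in the others, a ratio of 0.760. Rpl13a at 0.753 and Rps20 at 0.789 were lower too. Rpl6l, a copy, had 0.556 and Rps6ka3 0.704.

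Rpl10 went the other way in TRBV15 TRBJ1-1. Rpl10 (ENSMUSG00000008682, chrX:74270816-74273135) encodes a protein that joins the large subunit late, before the subunits can unite. It had 2059 CPM in the family and 1619 CPM in the other cells with 1 TRB, a ratio of 1.27 (1.23 to 1.32). Against the equally weighted mean of the other families the ratio was 1.23, which is under the fold. Set against the UMIs of the 100 genes alone, which asks how far a gene deviates from the rest of its set, the ratio was 1.47 (1.42 to 1.53). This scale holds the set as a whole at a ratio of 1 and shifts all other genes by the difference in share. Shares of all genes on this scale, here and below, are therefore not a like background for the set. The other 11 families lay between 1453 and 1977 CPM, so that this family, lowest in share, was highest for Rpl10. The intervals of TRBV12-2 TRBJ1-1 at 1977 CPM and TRBV14 TRBJ1-4 at 1920 CPM overlap with its own. As a mean over cells, each weighing the same, Rpl10 had 1979 CPM in the family and 1522 CPM in the others, a ratio of 1.30, and it had a UMI in 90.1% of cells of the family and 87.7% of the others. The other X-linked ribosomal protein genes of the set did not share this: the ratios in the family were 0.864 for Rps4x, 0.833 for Rpl36a and 0.847 for Rpl39. Rpl10-ps3, a symbol left out of the set, had 193 CPM in the family and 140 CPM in the other cells, a ratio of 1.38 (1.22 to 1.56), and whether the 2 genes share reads was not tested. Per UMI of the set, 4 of the 89 genes were higher (against 32.7% of all genes) and 1 lower (against 2.86%), and the 4 were Rpl10, Rpl21, Rps27l and Rps6ka1. Rpl21 had a ratio of 1.08 by CPM and 1.254 per UMI of the set, and Rps6ka1 had 82.5 CPM in the family and 55.9 CPM in the others, a ratio of 1.48.

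TRBV12-2+TRBV13-2 TRBJ2-3, with 600 cells, had 3 genes higher (3.37%, against 8.83% of all genes) and 0 lower (against 13.6%): Rps27, its copy Rps27rt and Rps6kb1. Rps27 had 14660 CPM in the family and 11348 CPM in the other cells, a ratio of 1.29 (1.27 to 1.31). It was the highest of the 12 families, the others lying between 10142 and 12742 CPM. Rps27rt had 815 CPM in the family and 610 CPM in the others, a ratio of 1.34. Per UMI of the set 2 genes were higher (against 6.07% of all genes) and 0 lower (against 18.4%). The 2 were Rps27rt with 1.27 and the kinase gene Rps6kb1 with 1.29 (1.01 to 1.63). Rps27, with 1.23 on that scale, was under the fold. As a mean over cells Rps27 kept 1.29, with 14705 CPM in the family and 11426 CPM in the others. The family was deeper, with a median of 2529.5 UMIs against 1975 in the others. Over all cells Rps27 had 10016.5 CPM under 1000 UMIs and 11977 CPM at 1000 to 2000 UMIs. It had 12219 CPM at 2000 to 4000 UMIs and 11414.5 CPM at 4000 UMIs or more. The family also had 1944 CPM of 5 erythroid markers, against at most 16.7 CPM in any other family. The part of depth and of these markers in the result was not tested. The 2 genes share their first bases, which is why they are set out here. In the 50 bases after the start, the longest run that both have in common is 38 bases. In the 250 bases before it, the longest is 10 bases. Bases further along the genes were not compared. Capitals mark the shared run in windows at chr3:90213624-90213653 for Rps27 and chr9:114982715-114982744 for Rps27rt, both on the minus strand of GRCm38.p6.
Rps27: tcgctcCTTTCCGGCGGTGACGACCTCCCT
Rps27rt: ccttgCTTTCCGGCGGTGACGACCTCCCTA
Whether the counts of the 2 genes share reads was not tested.

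TRBV13-3 TRBJ2-1 was the family with the relatively high small subunit. It had 2 genes higher (2.25%, against 7% of all genes) and 6 lower (6.74%, against 5.23%). Rps28 (ENSMUSG00000067288, chr17:33823036-33824562), a small protein near the exit of messenger RNA, had 4970 CPM in the family and 3783 CPM in the other cells, a ratio of 1.31 (1.24 to 1.39), or 1.43 per UMI of the set. No other family had more than 4640 CPM of it, although the intervals of the next families overlap with this one. Rps10, which sits near the entry of messenger RNA, had 1950 CPM in the family and 1542 CPM in the others, a ratio of 1.26, or 1.38 per UMI of the set. On that scale 5 genes were higher (against 11.4% of all genes) and 1 lower (against 2.82%), with Rps2 at 1.33, Rpl34 at 1.31 and Rps18 at 1.27 besides. Those lower by CPM were Rpl7a at 0.745, Rpl17 at 0.777, Rpsa at 0.788, Rpl32 at 0.794, Rps7 at 0.797 and the copy Rpl37rt at 0.671. So by CPM the genes of the small subunit did not move as one here, 2 being higher and 2 lower. Per UMI of the set, Rps7 at 0.870 and Rpsa at 0.860 were not past the fold, and the 1 lower gene was Rpl37rt.

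**Figure D5:**
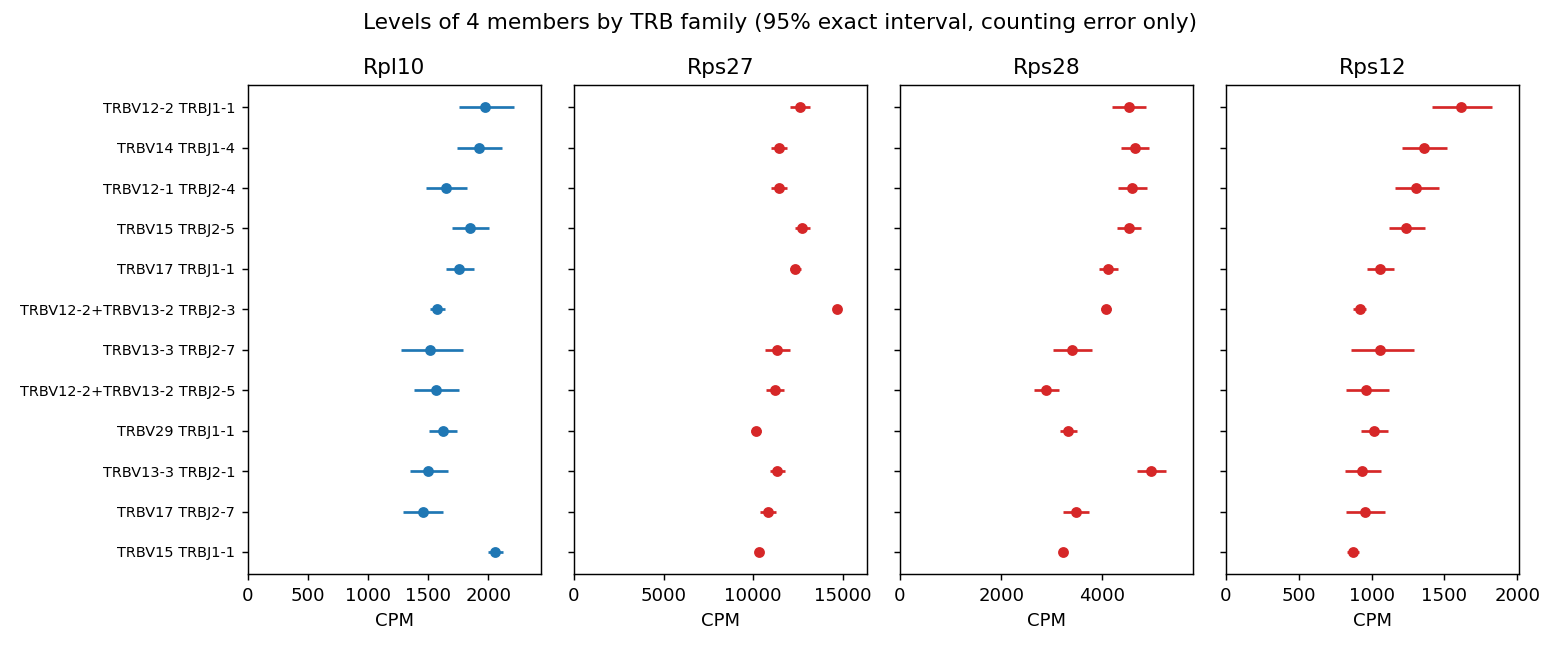
Level (CPM, axes from 0) of Rpl10, Rps27, Rps28 and Rps12 in 12 TRB families, ordered with the highest share of the set at the top; bars are exact 95% intervals for counting error. Rpl10 is highest in the bottom family, TRBV15 TRBJ1-1, at 2059 CPM, Rps27 in TRBV12-2+TRBV13-2 TRBJ2-3 at 14660 CPM, Rps28 in TRBV13-3 TRBJ2-1 at 4970 CPM and Rps12 in the top family, TRBV12-2 TRBJ1-1, at 1611 CPM.

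Rps28 was lowest in TRBV12-2+TRBV13-2 TRBJ2-5, with 2894 CPM in the family and 3834 CPM in the other cells, a ratio of 0.755. That family had 5 genes lower (5.62%, against 5.01% of all genes) and 1 higher (1.12%, against 4.68%). Rpl36a had 875 CPM in the family and 1213 CPM in the others, a ratio of 0.721 (0.613 to 0.844), while its autosomal paralog Rpl36al had 281 CPM in the family and 173 CPM in the others, a ratio of 1.62 (1.20 to 2.14). The value of Rpl36al rests on 51 UMIs in the family. Rpl22l1 was at 0.774, Rpl6 at 0.759 and Rpl3 at 0.795.

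In TRBV17 TRBJ1-1, 5 genes were higher (5.62%, against 6.8% of all genes) and 0 lower (against 9.21%). Rpl13a, the low gene of the large subunit, had 146 CPM in the family and 78.3 CPM in the other cells, a ratio of 1.87 (1.45 to 2.38), from 73 UMIs in the family. It had a UMI in 21% of cells of the family and 13.3% of the others. As a mean over cells its ratio was 1.63. Over the families Rpl13a ran from 32.7 CPM, or 3 UMIs, in TRBV13-3 TRBJ2-7 to 146 CPM. Rpl3 was at 1.33, Rpl36al at 1.29, Rpl27 at 1.29 and Rpl39 at 1.26.

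The remaining families had few genes past the fold. TRBV17 TRBJ2-7 had 0 higher (against 5.87%) and 3 lower (3.37%, against 4.13%): Rps15 at 0.754, Rpl36a at 0.774 and Rps25 at 0.788. TRBV29 TRBJ1-1 had 0 higher (against 6.11%) and 1 lower (against 6.04%), Rps27rt at 0.788. TRBV13-3 TRBJ2-7, the smallest family with 50 cells, had 1 higher (against 3.56%) and 0 lower (against 2.68%), the copy Rpl6l, from 8 UMIs in the family.

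Some genes hardly varied. Among the subunit genes the ratio of the highest to the lowest family had a median of 1.48. It was 1.29 for Rpl30, 1.30 for Rpl7, 1.30 for Rps29 and 1.31 for Rpl9, and 1.87 for Rpl3, 1.84 for Rps12 and 1.83 for Rpl36a. The widest spread was in genes of low count: Rps19bp1 ran between 10.9 CPM, from 1 UMI, and 93.2 CPM, Rpl7l1 between 21.8 CPM, from 2 UMIs, and 86.5 CPM, and Rpl36al between 109 and 281 CPM. Rpl6l ran between 19.2 and 87.1 CPM, Rps6ka1 between 22.5 and 83.2 CPM, Rps6kb1 between 22.5 and 72.2 CPM and Rpl37rt between 183 and 346 CPM. Counted against the UMIs of the set, 26 of the 89 genes deviated in at least 1 family, and 17 of the 26 were subunit genes. Over all genes so counted it was 82.1%. That scale itself holds the set near 1 and shifts the other genes, so the gap between these shares is no result about the set.

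Genes of the wider translation machinery were past the fold in some of these families and not in others. Of 17 translation factor genes, all tested, 8 were higher (against 5.47% of all genes) and 0 lower in TRBV14 TRBJ1-4, with a median ratio of 1.16. In TRBV12-2 TRBJ1-1, 6 were higher (against 4.44%) and 1 lower with a median of 1.20, and in TRBV12-1 TRBJ2-4, 3 were higher (against 6.9%) and 1 lower with a median of 1.07. TRBV15 TRBJ2-5, also high in share, had 0 higher (against 3.6%) and 0 lower (against 6.9%), with a median of 1.05. In TRBV15 TRBJ1-1 none passed in either direction, against 12.1% higher and 7.59% lower over all genes, and the median was 0.922. TRBV13-3 TRBJ2-1 had 0 higher and 3 lower (against 5.23%). Eef1a1, the factor that brings amino acids to the ribosome, had 3012 CPM and a ratio of 1.36 in TRBV14 TRBJ1-4 and 1940 CPM and 0.84 in TRBV15 TRBJ1-1. Of 25 biogenesis genes, 20 were tested, and 4 were higher (against 4.44%) and 0 lower in TRBV12-2 TRBJ1-1 with a median of 1.21. In TRBV12-1 TRBJ2-4, 4 were higher (against 6.9%) and 0 lower, with a median of 1.19, and in TRBV14 TRBJ1-4, 2 were higher (against 5.47%) with a median of 1.05. In TRBV15 TRBJ2-5, 0 were higher or lower and the median was 0.932, below 1. TRBV17 TRBJ1-1, at a share of 19.7%, had 0 higher and 1 lower (against 9.21%), with a median of 0.979.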

How the data were processed

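The authors deposited unnormalised UMI counts (20794 genes by 10387 barcodes) and a table of TCR contigs with their UMI counts, per the file headers. Tools in the submitters' processing notes are STAR 2.6.1a, featureCounts 2.0.1 and cutadapt 1.17, with build GRCm38; cell calling, strand and the TCR assembler are not given in the sources used here. Barcodes were kept from 200 genes up if mitochondrial UMIs stayed below 20%. Doublets were not called, and barcodes with 2 or more TRB chains were left out of families; 4126 barcodes with a TRB were shared with the RNA library. Counts were summed over cells. Shares have exact Clopper-Pearson, levels exact Poisson and ratios exact conditional 95% intervals, for counting error only. By the rule for named genes, any gene of the set could be named; those past the fold, the 10 highest and lowest by level, the 10 that varied most between families and the 5 most uneven over cells were sought. The gene set, lists and families were chosen with earlier results of these data known. Some genes enter the sums and counts but are not reported here by name. The fold rule was tested on simulated counts with folds of 1.5 planted in genes of higher level. Those counts held no spread between cells beyond counting error. Planted folds near 1.25 and changes in genes of low count were not simulated. Python 3.11.15, numpy 2.4.6, scipy 1.17.1 and pandas 2.3.3 were used. Alternatives changed cell filters, denominator, families, fold and scaling.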

Additional observations from a re-analysis of the deposited data

How the results depend on the processing

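The share of 18.5% over all cells was 18.5% with no filter on cells, 18.7% under 10% mitochondrial UMIs, 18.7% in cells of at least 1000 UMIs, 19.9% with mitochondrial genes and Gm42418 out of the denominator, 17.8% as a mean over cells, 18.3% with the listed subunit genes only, and 19.5% with Fau, others outside the symbol rule and symbols ending in -ps added. The gap of 5.57 points between families was 5.93 with the reduced denominator and, under alternatives chosen after seeing the data, 5.17 as a mean over cells and 4.34 among cells of 1000 to 2000 UMIs, with TRBV14 TRBJ1-4 in place of TRBV12-2 TRBJ1-1 as the highest family in both. The 58 genes past the fold became 8 at a fold of 1.5, and 26 per UMI of the set, 20 of them among the 58; the cause was not tested. Under the other alternatives there were 57 to 60, but not always the same genes: of the 58, 45 were among the 60 with the authors' clonotypes and 49 among the 57 against equally weighted families. The ratio of subunits stayed at 1.18. Rpl10 fell under the fold, at 1.23, against the equally weighted other families, and Rps27 at 1.23 per UMI of the set. At a fold of 1.5 the calls of Rpl10, Rps27 and Rps28 ended and that of Rps12 held. The ratios behind these calls stayed above 1 under every alternative for which they were computed. With the authors' clonotypes they were not computed. For other genes, direction was not compared across the alternatives. The 1 library limits every statement to these cells, and families under 100 cells have few UMIs for genes under 100 CPM. No paired analysis was possible because there is 1 library and no replicate.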
